A study of Mus musculus with 43 samples.

Results

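The 39 Hox genes of the mouse were followed along the proximal tubule of the female kidney, the part of the nephron that takes back most of what the glomerulus filters. Members were all genes of the deposited expression table whose symbol is Hox, a cluster letter from a to d and a paralog number, which gave 39 genes in 40 rows out of 54532 genes. Hoxd4 had 2 rows, and the one with the higher mean was used. The RNA-seq libraries came from microdissected tubules of C57BL/6 female mice (6 to 8 weeks old, no treatment or engineered allele named), with 2 to 5 tubules per library. They number 6 for S1, the first part of the tubule, 6 for S2, the middle part, and 7 for S3, the last part. The title numbers, if they name animals, give 2, 3 and 4 animals, with none in common between S1 and S2. The table holds 1 value per gene and segment in TPM, transcript abundance corrected for length and scaled to a fixed total, so none of the differences below has a replicate check, an SD or a test, and the depth is unknown. Whether a transcript was low because fewer cells of a type were present or because each held less RNA cannot be told apart in such samples.

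Hox genes encode transcription factors that bind DNA through a homeodomain. They lie in clusters A to D, and genes at matching places in different clusters, called paralogs, carry the same number. In the embryo low numbers are used toward the head and high numbers toward the tail, so that cells keep a record of where along the body they arose. In the developing kidney, paralogs 10 and 11 act in nephron progenitors and the surrounding stroma, where the proteins of group 11 work with Eya1 and Pax2 to switch on Six2 and Gdnf. Hoxb7 is best known in kidney for its activity in the ureteric bud and collecting duct.

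In the adult proximal tubule the segments differed most in the Hox genes of cluster B, which were low in S1. Of the 39 genes, 26 came to 1 TPM or more somewhere along the tubule and were compared. The other 13 stayed below that level, with Hoxd3 (0.7) and Hoxb1 (0.5) the highest of them, and 4 (Hoxa13, Hoxb13, Hoxd1 and Hoxd13) were listed at 0 throughout. Just above that level was Hoxc5, with a highest TPM of 1. Genes at or above this level numbered 18 (S1), 22 (S2) and 23 (S3). Hox transcripts summed to 152.4 TPM (S1), 215.1 (S2) and 285.1 (S3), and 5 genes made up 67.8%, 63.8% and 62.7% of these sums. The leading gene was Hoxa10 in S1 and Hoxa9 in S2 and S3.

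**Figure D1:**
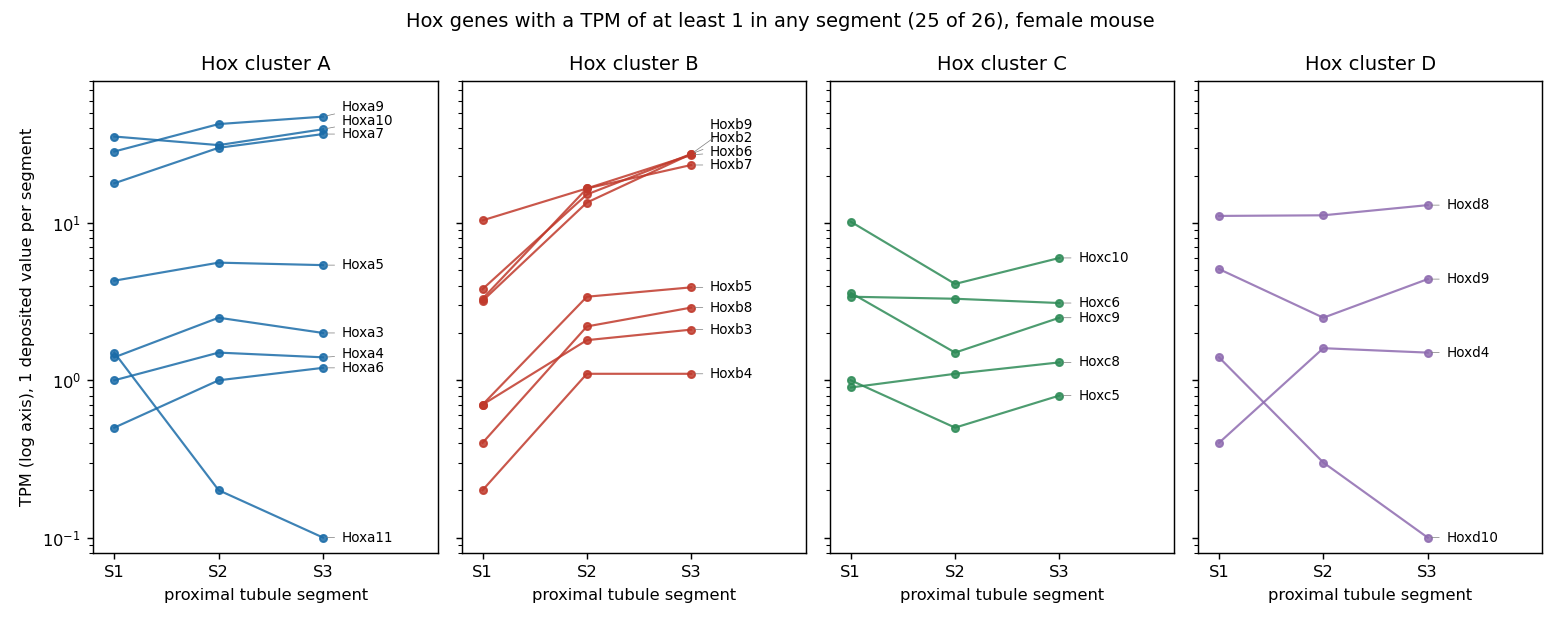
TPM (log axis) of 25 of the 26 Hox genes that reached a TPM of 1, in S1, S2 and S3, with 1 panel per cluster. Each line is 1 gene and each point the deposited value of a segment. All 8 cluster B genes have their lowest point in S1 in the values as deposited, while Hoxa11 and Hoxd10 have their highest there.

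Levels were called higher or lower when they differed at least 2-fold on the log2(TPM + 1) scale, on which the fold of low genes is understated. Between S1 and S2, 2 of the 26 Hox genes were higher in S1, against 6.62% of the 16053 genes compared, and 5 were lower, against 17.7%. As shares of the Hox genes these are 7.69% and 19.2%, both near the background. Between S1 and S3, 2 were higher in S1 (10.5% of all genes) and 7 were lower (13.1% of all genes), or 7.69% and 26.9% of the Hox genes. Between S2 and S3 none passed 2-fold in either direction, while 8.74% of all genes were higher in S2 and 2.24% were lower. Of all genes called between S1 and S2, 27.2% were higher in S1, but 46.8% under quantile normalization and 69.1% under median-of-ratios scaling over all genes above 0. For S2 against S3 the share higher in S2 was 79.6%, 61.6% and 43% under the same settings, so the backgrounds depend on the scaling. The calls fell unevenly over the clusters: all 5 that were lower in S1 than in S2 belong to cluster B, and both that were higher do not. Of the 7 lower in S1 than in S3, 6 belong to cluster B and 1, Hoxa7, to cluster A. Summing rows per symbol added Hoxd4 to these, 8 in all. Against S2, Hoxd4 joined the lower genes when rows were summed per symbol or mitochondrially encoded genes, Gpx3 and Kap were left out (6 in each), and Hoxb5 and Hoxb8 were not called under quantile normalization and median-of-ratios scaling over all genes above 0.

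Cluster B (chromosome 11, 96194316 to 96368254, GRCm38.p6) was low in S1 and high in S3. Its summed level was 22.9 TPM (S1), 70.9 (S2) and 115.7 (S3), which is 3.1-fold higher in S2 and 5.05-fold higher in S3 than in S1. The 8 genes compared all had their lowest value in S1 and their highest in S3 (Hoxb4 tied with S2), except that median-of-ratios scaling over all genes above 0 put Hoxb7 higher in S1 than in S2, and leaving out mitochondrially encoded genes, Gpx3 and Kap put Hoxb4 highest in S2. Hoxb1 and Hoxb13, at the ends of the cluster, did not reach a TPM of 1.

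Hoxb9, the most 5′ member of the cluster apart from Hoxb13, showed the greatest difference. It was at 3.2 TPM (S1), 13.5 (S2) and 27.5 (S3), so S3 was 8.59-fold above S1 (log2 difference 2.76). Its S3 value was also 2.04-fold above S2, which on the log2(TPM + 1) scale (0.97) lies just below the threshold. Hoxb9 (chromosome 11, 96271330 to 96276595) overlaps no other annotated gene.

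Hoxb6 was at 3.3 TPM (S1), 16.6 (S2) and 27.1 (S3), 8.21-fold higher in S3 than in S1 (log2 difference 2.71). Hoxb2, which in the embryo patterns the hindbrain, was at 3.8, 15.2 and 27.5 TPM, 7.24-fold higher in S3 (2.57). Hoxb6, Hoxb9 and Hoxb2 thus stood at nearly equal levels in each segment. Paralog number did not order the sizes of these differences, as genes with the numbers 2, 6 and 9 came out alike.

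Hoxb7 was the exception within the cluster, with 10.4 TPM (S1), 16.6 (S2) and 23.4 (S3). It was already the most abundant cluster B gene in S1, and S3 was 2.25-fold above S1. The 4 remaining members stayed at low levels. Hoxb5 was at 0.7, 3.4 and 3.9 TPM and Hoxb8 at 0.4, 2.2 and 2.9, with log2 differences between S3 and S1 of 1.53 and 1.48. Hoxb3 (0.7, 1.8 and 2.1 TPM) and Hoxb4 (0.2, 1.1 and 1.1) were below the threshold in every contrast, with 0.87 and 0.81 between S3 and S1. At such levels, values given to 1 decimal are coarse.

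**Figure D2:**
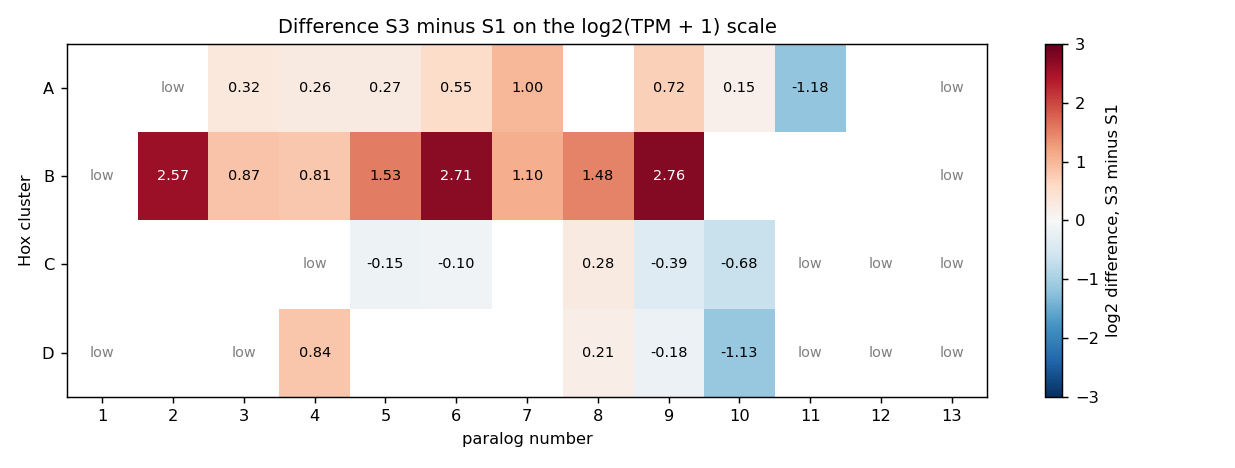
Difference S3 minus S1 on the log2(TPM + 1) scale for Hox genes, by cluster (rows) and paralog number (columns). Red cells are higher in S3 and blue cells higher in S1; "low" marks genes under a TPM of 1 in every segment, and white cells without text are positions with no gene shown. Cluster B runs from 0.81 to 2.76, and the lowest values are those of Hoxa11 (-1.18) and Hoxd10 (-1.13).

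Cluster A (chromosome 6, 52155367 to 52260880) held the most abundant Hox transcripts of the tubule in all segments. Its sum was 91.1 TPM (S1), 116 (S2) and 135.3 (S3), and the S1 and S2 order turned with median-of-ratios scaling over all genes above 0. Hoxa9 was at 28.5 TPM (S1), 42.6 (S2) and 47.5 (S3), 1.67-fold higher in S3 than in S1, with the S1 and S2 order turned by the same scaling. Hoxa10, a neighbour of Hoxa9 that also acts in uterus and limb development, was nearly level as deposited, at 35.5, 31.3 and 39.5 TPM. Its log2 difference for S1 minus S2 ran from 0.07 to 0.87 over all settings. Hoxa7 was at 17.9, 30.1 and 36.8 TPM, and its log2 difference between S3 and S1 of 1.00 lies on the threshold.

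Hoxa11 went the other way. This paralog of group 11, needed with its paralogs for kidney formation, was at 1.5 TPM (S1), 0.2 (S2) and 0.1 (S3). S1 was the only segment where it passed a TPM of 1, and its log2 differences were 1.06 against S2 and 1.18 against S3. Hoxa10 and Hoxa11 adjoin each other on the chromosome (52231197 to 52240854 and 52242105 to 52245810), so a gene nearly level as deposited and one high in S1 are direct neighbours. Other cluster A genes stayed below the threshold on the log2(TPM + 1) scale in every contrast: Hoxa5 (4.3, 5.6 and 5.4 TPM), Hoxa3 (1.4, 2.5 and 2.0), Hoxa4 (1.0, 1.5 and 1.4) and Hoxa6 (0.5, 1.0 and 1.2, which passed it between S1 and S3 with a pseudocount of 0.1). Each of these 4 was lowest in S1, although under quantile normalization Hoxa4 and Hoxa6, and under median-of-ratios scaling over all genes above 0 Hoxa4 and Hoxa5, were higher in S1 than in S2.

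To show the start regions of a cluster A gene that was higher in S3 and one that was higher in S1, the 250 bases before the RefSeq start of Hoxa7 (chr6:52218574-52218823, minus strand) and of Hoxa11 (chr6:52245811-52246060, minus strand) are given 5′ to 3′, with each CG pair in capitals.
Hoxa7: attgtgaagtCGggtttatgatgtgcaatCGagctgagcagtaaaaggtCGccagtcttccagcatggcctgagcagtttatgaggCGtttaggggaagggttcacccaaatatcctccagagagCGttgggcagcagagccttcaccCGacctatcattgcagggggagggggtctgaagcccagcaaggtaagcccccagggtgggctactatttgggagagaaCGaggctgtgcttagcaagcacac
Hoxa11: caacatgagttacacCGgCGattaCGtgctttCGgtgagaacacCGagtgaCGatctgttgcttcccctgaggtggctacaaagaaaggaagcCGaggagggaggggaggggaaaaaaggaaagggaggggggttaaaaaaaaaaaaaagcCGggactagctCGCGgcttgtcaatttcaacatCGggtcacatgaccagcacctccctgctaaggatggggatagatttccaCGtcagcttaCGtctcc
Hoxa7 has 7 such pairs and Hoxa11 has 13. Over 32817 windows of this length the median is 6, 92.1% hold at least 1 CG, and 68.5% hold fewer than Hoxa11. Start regions were given for 22 Hox genes in 24 windows, where the number ran from 2 to 35 with a median of 12.5. The sequence TGATNNAT, which Pbx and Hox proteins can bind together, occurred on either strand in 4 of these 24 windows, against 7.69% of all windows. TGACAG, bound by Meis proteins, occurred in 2 of them, against 15.9%. Neither was in the windows of Hoxa7 and Hoxa11, and a match here is a description of letters only.

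Cluster C (chromosome 15, 102921131 to 103036856) had its highest sum in S1, with 20 TPM against 11.4 in S2 and 14.3 in S3. Hoxc10 was at 10.2 TPM (S1), 4.1 (S2) and 6.0 (S3). It was 2.49-fold higher in S1 than in S2 (log2 difference 1.13) and did not pass the threshold against S3 (0.68). Hoxc9 had the same order at 3.6, 1.5 and 2.5 TPM (0.88 and 0.39). These 2 were lowest in the middle segment. Hoxc6 was level at 3.4, 3.3 and 3.1 TPM, and its S1 and S2 order turned without mitochondrially encoded genes, Gpx3 and Kap. Hoxc8 (0.9, 1.1 and 1.3 TPM) and Hoxc5 (1.0, 0.5 and 0.8) were near 1, and Hoxc4, Hoxc11, Hoxc12 and Hoxc13 did not reach it.

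Cluster D (chromosome 2, 74668225 to 74765142) differed little in its summed level. Its sums were 18.4 TPM (S1), 16.8 (S2) and 19.8 (S3), but 23.2, 12.9 and 21.8 with median-of-ratios scaling over all genes above 0, where the S1 and S3 order turned. Hoxd8, its leading gene, was at 11.1, 11.2 and 13 TPM. Hoxd9 was at 5.1 TPM (S1), 2.5 (S2) and 4.4 (S3), again lowest in S2 as for Hoxc9 and Hoxc10. Hoxd10 was at 1.4, 0.3 and 0.1 TPM, higher in S1 than in S3 (log2 difference 1.13), and just short of the threshold against S2 (0.88). Hoxd4 was at 0.4, 1.6 and 1.5 TPM, with its second row at 0.4, 1.6 and 1.2. Hoxd11, which with Hoxa11 is needed for normal kidney growth, was at 0.2 TPM in S2 and listed at 0 in S1 and S3.

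**Figure D3:**
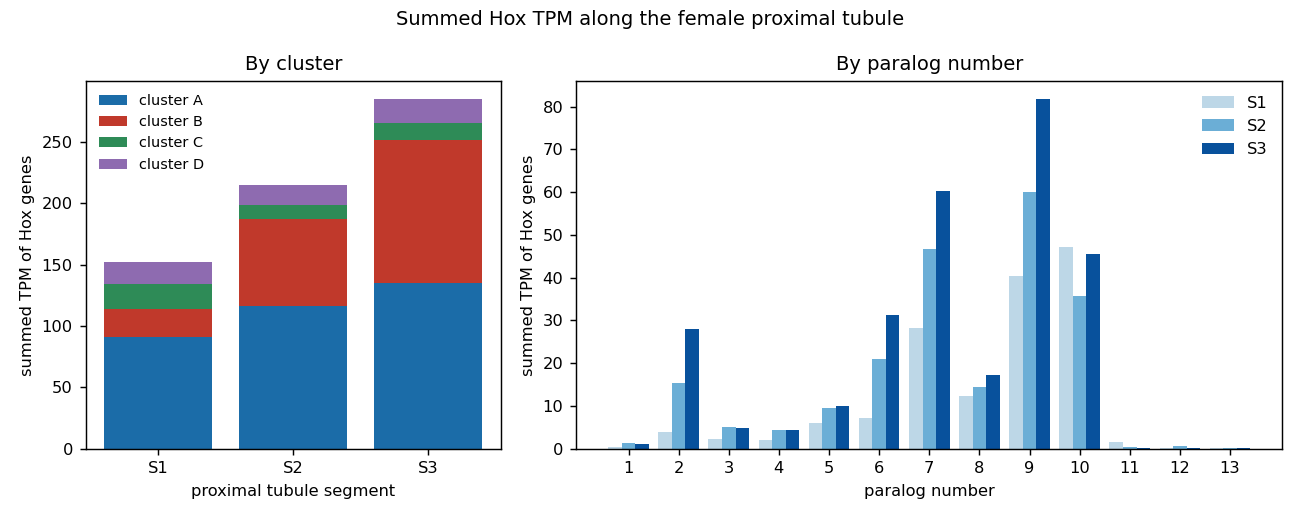
Summed TPM of the Hox genes in S1, S2 and S3, by cluster (left, stacked) and by paralog number over all clusters (right). Cluster B goes from 22.9 to 115.7 TPM between S1 and S3, while paralog number 10 stays between 35.7 and 47.1 TPM.

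The make-up of the Hox total does not depend on how a column is scaled by a constant. Cluster B supplied 15% of it in S1, 33% in S2 and 40.6% in S3. Cluster A supplied 59.8%, 53.9% and 47.5%, cluster C 13.1%, 5.3% and 5.02%, and cluster D 12.1%, 7.81% and 6.94%. Under quantile normalization the share of cluster B in S1 was 16.3%. Hoxb genes thus took a share of the total in S3 close to that of the Hoxa genes, while in S1 it was far smaller.

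Paralogs with the same number could differ between clusters. In group 9, Hoxb9 made up 7.92% (S1), 22.5% (S2) and 33.6% (S3) of the group's TPM, while Hoxc9 went from 8.91% to 2.5% and 3.05% and Hoxd9 from 12.6% to 4.16% and 5.37%. In group 6, Hoxb6 went from 45.8% in S1 to 79.4% in S2 and 86.3% in S3, and Hoxc6 from 47.2% to 15.8% and 9.87%. Group 7 was different: Hoxa7 held 63.3%, 64.5% and 61.1% of it, so Hoxa7 and Hoxb7 kept nearly the same proportion in every segment.

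By paralog number, transcripts of groups 10 to 13 took 32.2%, 17.2% and 16.1% of the Hox total from S1 to S3. Their sums were 49.1, 37 and 46 TPM, while the Hox total rose from 152.4 to 285.1. Groups 1 to 3 took 4.53%, 10.2% and 11.9% of the total, most of it from Hoxb2. The mean paralog number, weighted by TPM, was 8.21 (S1), 7.41 (S2) and 7.31 (S3). This order held in 38 of 39 recalculations that each left out 1 Hox gene. The exception was without Hoxb2, where the mean was 7.82 in S2 and 7.88 in S3. Such recalculations show how far it rests on single genes and are no replicate check. Within clusters A, C and D alone the mean was 8.59, 8.2 and 8.28, and within cluster B 6.06, 5.82 and 5.9. The step from S1 to S2 was thus present inside both sets, and the step from S2 to S3 was not.

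The median difference of the 26 genes was -0.48 (S1 minus S2), -0.44 (S1 minus S3) and -0.15 (S2 minus S3), beside -0.18, -0.01 and 0.12 for all genes compared. Quantile normalization moved the median of all genes by 0.25 for S1 minus S2 and by -0.17 for S2 minus S3, and median-of-ratios scaling over all genes above 0 moved them by 0.57 and -0.42. Under these scalings the Hox median for S1 minus S2 was 0.05 in both, on the other side of 0. By cluster the medians for S3 minus S1 were 1.5 for B and 0.32 for A, and for S1 minus S3 0.15 for C and -0.02 for D. In order S1, S2, S3, 13 of 26 Hox genes (50%) had ever higher values, against 20.9% of all genes compared, and 7 of these 13 were in cluster B. The counts were 12 to 16 of 26 over 4 other scalings, with 16.7% to 21.7% of all genes. Ever lower values were found for 3 (Hoxa11, Hoxc6 and Hoxd10), against 22.9%, and for 0 under quantile normalization and 2 under each of the 3 other scalings, with 12% to 24.9% of all genes. With ties counted for both, 7 of 26 were highest in S1, 5 in S2 and 15 in S3, against 36.4%, 37.9% and 27.5% of all genes compared. All 8 compared genes of cluster B were among the 15, and 4 of the 5 of cluster C among the 7.

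Besides Hox genes, the clusters hold long non-coding RNAs and microRNA genes. RefSeq places 32 genes other than Hox genes within the 4 clusters (25 long non-coding RNAs, 6 microRNAs and 1 pseudogene), of which 20 were in the table and 12 reached a TPM of 1. In cluster A, Hotairm1, a long non-coding RNA, was at 10.7 TPM (S1), 33.2 (S2) and 39.5 (S3), 3.69-fold higher in S3 than in S1. Hoxaas3 was at 1.7, 3.9 and 4.0 TPM and Gm15050 at 0.6, 1.4 and 2.1. Hoxa11os, transcribed opposite Hoxa11, had its partner's order at 2.0, 0.4 and 0.1 TPM. Reads of Hoxa11os and Hoxa11 cannot be told apart where these genes overlap, as the protocol names no strand marking.

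In cluster B, Hoxb5os, which lies opposite Hoxb5 and Hoxb6 (chromosome 11, 96291037 to 96306910), had the greatest difference of any gene within the clusters. It was at 1.0 TPM (S1), 10.7 (S2) and 57.9 (S3), 57.9-fold higher in S3 than in S1 and 5.41-fold higher than in S2. The protocol names no strand marking, so reads of Hoxb5os, Hoxb5 and Hoxb6 cannot be told apart where they overlap. Of the genes compared, 17 of the 26 Hox genes overlap another annotated gene; Hoxb7, Hoxb8, Hoxb9, Hoxa7, Hoxa9, Hoxc6, Hoxc8, Hoxc10 and Hoxd9 do not. Hoxb3os was at 2.7, 5.8 and 5.3 TPM, Gm53 at 9.7, 14.6 and 12.8, and the pseudogene Gm11539 at 0.6, 1.9 and 1.1. In cluster D, Hoxd3os1 was at 14.4, 27.6 and 34.5 TPM, 2.4-fold higher in S3 than in S1, although Hoxd3 did not reach a TPM of 1.

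The clusters also encode the miR-196 and miR-10 families, which are known to repress Hox transcripts. Their mature forms (RefSeq, GRCm38.p6) are printed 5′ to 3′ with the seed, bases 2 to 8, in capitals, because both families share 1 seed among members in different clusters.
mmu-miR-196a-5p: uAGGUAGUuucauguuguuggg
mmu-miR-196b-5p: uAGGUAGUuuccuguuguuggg
mmu-miR-10a-5p: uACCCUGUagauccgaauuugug
mmu-miR-10b-5p: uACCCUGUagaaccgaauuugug
Counted from the 5′ end, miR-196a-5p and miR-196b-5p differ by A12C, and miR-10a-5p and miR-10b-5p by U12A. The hairpin gene Mir196b, between Hoxa9 and Hoxa10 (chromosome 6, 52230081 to 52230165), was at 7.9 TPM (S1), 28 (S2) and 36.1 (S3). Mir196a-1 in cluster B read 1.9 TPM in S1 but 0 in the other segments, and Mir196a-2 in cluster C read 8.5 TPM in S2 alone, with 0 listed elsewhere. Mir10a, Mir10b and Mir615 were listed at 0 throughout. The kit primes poly(A) tails, so these values describe longer transcripts across a short hairpin and not mature microRNA, and over so few bases they can rest on few reads.

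Hox proteins bind DNA together with homeodomain cofactors of the TALE class, the Pbx, Meis and Pknox proteins. Of 9 such genes, 8 reached a TPM of 1. Pknox1 was the most abundant and level, at 8.2 TPM (S1), 10.7 (S2) and 10.7 (S3). Pknox2 was at 0.3, 2.5 and 8.0 TPM, the one cofactor that was at least 2-fold higher in S3 than in S2. Meis1 had the opposite order at 3.9, 1.8 and 0.7 TPM, higher in S1 than in S3 (log2 difference 1.53).

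Meis2 peaked in S2, at 5.7 TPM against 2.3 in S1 and 2.1 in S3. Pbx3 was at 4.2, 2.4 and 2.4 TPM, Pbx4 at 1.7, 3.5 and 2.5, Pbx2 at 2.6, 2.7 and 2.8, and Meis3 at 0.3, 0.9 and 0.4. Among the 8 compared, 3 were lower in S1 than in S2 and none higher, but under quantile normalization none was lower and 2 were higher, and under median-of-ratios scaling over all genes above 0 1 was lower and 2 were higher. The values for S1 against S3 were 1 higher and 1 lower, and so were those for S2 against S3, where the higher one was not called under quantile normalization or either median-of-ratios scaling. For the values as deposited, the shares over all genes are those given for the Hox genes. For S1 minus S2, 1521 of the 16053 genes compared were higher and 1729 lower under quantile normalization. Under median-of-ratios scaling over all genes above 0 these were 3550 and 1586.

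Polycomb complexes keep Hox clusters silent outside their domains, and the MLL proteins and H3K27 demethylases oppose them. As deposited, no gene passed the threshold in any contrast among the 9 compared of Polycomb complex 2. The same held for the 11 of the MLL and demethylase list. Under median-of-ratios scaling over all genes above 0, however, S1 exceeded S2 by 2-fold or more for 3 of the 9 and 4 of the 11. So it did for 3550 of all 16053 genes compared. There 1 of the 9 was also 2-fold or more higher in S1 than in S3. With median-of-ratios scaling over genes compared, 1 of the 9 was higher in S1 than in S2. Of 18 genes of Polycomb complex 1, 3 were lower in S1 than in S2, and against S3 1 was higher in S1 and 3 were lower, which is near the shares over all genes (17.7%, 10.5% and 13.1%). Pcgf5 was at 11.2, 29.1 and 30.2 TPM, highest in S3. With median-of-ratios scaling over all genes above 0, 3 genes of this complex were higher and none lower in S1 than in S2, beside 3550 and 1586 of all genes. Bmi1 was the one higher in S1 than in S3, at 17.2, 8.4 and 7.4 TPM.

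Retinoic acid sets Hox domains in the embryo, with 3′ genes of low number the most sensitive. Of 13 compared genes of its pathway, S1 had 3 higher and 3 lower relative to S2, and 4 higher and 1 lower relative to S3, and S2 had 3 higher relative to S3. The shares over all genes are 6.62% and 17.7%, 10.5% and 13.1%, and 8.74% in the same order. Under quantile normalization and both median-of-ratios scalings 1 gene in place of 3 was higher in S2 than in S3. Of all genes, 865 were higher there under quantile normalization, 730 under median-of-ratios scaling over all genes above 0 and 1117 over genes compared. Median-of-ratios scaling over all genes above 0 left 1 pathway gene lower in S1 than in S2, beside 1586 of all genes. Stra6, a receptor that takes up vitamin A, was at 58.3 TPM (S1), 0.7 (S2) and 0.2 (S3). The receptor gene Rxra was at 41, 15.4 and 9.0 TPM. Dhrs3, which turns retinaldehyde back into retinol, was at 55.4, 150.5 and 118.9 TPM, and Rdh10, which does the reverse, at 11.8, 12.8 and 5.8.

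Markers of other cells were read beside these results. Segment markers followed the labels in the values as deposited: 5 of 5 for S1, 4 of 4 for S2 and 5 of 5 for S3 were highest in their own segment. Only 1 of the 5 S3 markers was 2-fold or more above S2 on the log2(TPM + 1) scale, however. Slc7a13 (1.1 TPM in S2 and 2.9 in S3) fell short at 0.89, and Slc22a7 read 877 TPM in S2 and 1155 in S3. Of the 4 S2 markers, 3 were 2-fold or more above S1, and the other, Slc22a8, read 297.3 TPM in S1 and 349.1 in S2. Of the 8 general proximal tubule markers, Lrp2 (143, 228.3 and 259.1 TPM), Cubn (46, 61.8 and 59.7) and Hnf4a (112.2, 117.2 and 136.3) were present throughout at levels within 2-fold. The other 5 differed more: Aqp1 went from 33 TPM in S1 to 561 in S3, Ggt1 from 75.1 to 1539 and Slc27a2 from 611 to 5476, while Slc34a1 went from 10241 to 17 and Miox from 8516 to 528.6. Endothelial markers were highest in S2 in 10 of 10 cases, with sums of 75.6 TPM (S1), 711.6 (S2) and 281.1 (S3). The 10 stromal and mural markers summed to 2.6, 21.3 and 2.4 TPM and were highest in S2 for each of the 6 compared, with Lum listed at 0 in S1 and S3. The 10 immune markers summed to 58, 300.4 and 96.6 TPM, and 8 of 9 compared were highest in S2, the exception being Csf1r. Cluster B genes were lower in S1 than in S2 as these lists were. For S1 minus S3 the medians of endothelial, stromal and immune markers were -1.46, 0.05 and -0.42, with 7 of 10 endothelial markers 2-fold or more lower in S1, beside -1.5 for cluster B. For S2 minus S3 they were 1.36, 1.86 and 2.10, and the median of cluster B for S3 minus S2 was 0.38. The part of these cells in the Hox differences was not tested in any contrast.

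**Figure D4:**
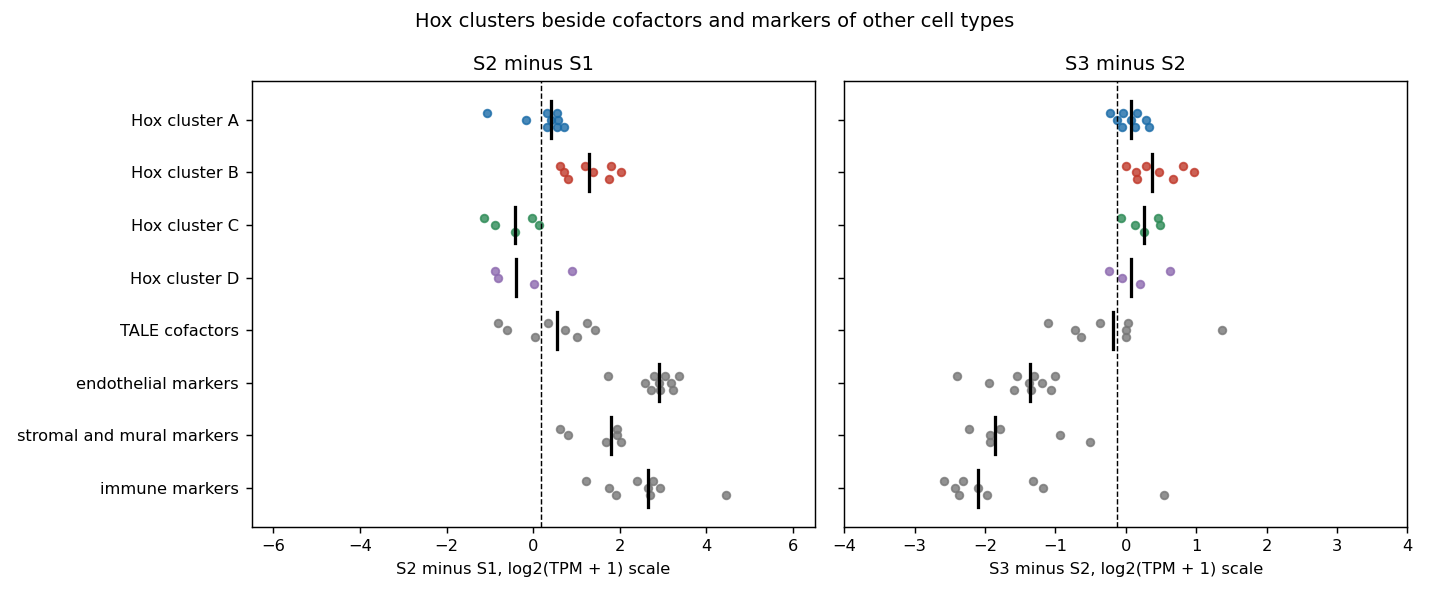
Differences S2 minus S1 (left) and S3 minus S2 (right) on the log2(TPM + 1) scale for the compared genes of each Hox cluster, the TALE cofactors and 3 marker lists. Each point is a gene, black bars are medians and the dashed line is the median of all genes compared. Cluster B and the marker lists lie to the right in the left panel, while in the right panel the marker medians lie to the left and that of cluster B at 0.38.

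Of 8 listed markers of the collecting duct principal cell, where Hoxb7 is also active, Aqp2, Avpr2, Scnn1b, Scnn1g and Hsd11b2 were at or below 0.5 TPM in every segment. The others were not: Aqp3 was at 28.3, 5.2 and 0.1 TPM and Fxyd4 at 32.3, 7.4 and 0.9. Aqp4, listed at 0, then 24.1 and 67.9 TPM, had the order of the cluster B genes. The whole list of 8 summed to 60.7, 37.7 and 69.3 TPM, nearly all of it from Aqp3 and Fxyd4 in S1 and Aqp4 in S3, with 5 genes listed at 0 in S1, none in S2 and 2 in S3. The 6 intercalated cell markers summed to 1.7, 1.4 and 0.4 TPM and the 5 distal convoluted tubule markers to 1.5, 2.9 and 3.5. The 6 loop of Henle markers summed to 6.1, 21.9 and 30.5 TPM, of which Umod was 0.2, 21.1 and 29.1 and Ptger3 5.4, 0.4 and 0.2. Slc12a1 stayed at or below 1 and Slc14a2 was listed at 0. Umod thus had the order of the cluster B genes and Ptger3 the opposite one, and the part of such cells in the cluster B order was not tested. The 6 podocyte markers summed to 6.9, 19.1 and 6.0 TPM. Of these, Podxl was at 1.4, 13.4 and 3.1 and Cdkn1c at 4.5, 2.5 and 1.4, while Nphs1 was at or below 0.2.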

How the data were processed

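Expression was measured in 19 female RNA-seq libraries, and the 24 ATAC-seq libraries were not analysed here. Per the labels' protocols, cDNA was made with a SMARTer V4 kit in 10 to 12 PCR cycles, tagmented and sequenced as 50-base pairs. The submitters' processing notes name mm10 and, among the tools, STAR and RSEM, without roles. The authors deposited TPM, 1 value per gene and segment with 1 decimal. How libraries were combined, and with which annotation, is not given in these sources. TPM keeps no depth, so no interval or floor was computed. The table's 5 other value columns, which fit no labelled group of RNA libraries, were left out.

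Members and gene lists were chosen with earlier results of these data known. Genes that came to 1 TPM or more in any segment were compared on log2(TPM + 1), with no test. Some genes are not reported here by name. All other Hox genes could be named, as could cofactors, genes inside the clusters from that level and, of other lists, up to 6 members at least 2-fold different at a TPM of at least 5, and defining cell type markers. Alternatives were a pseudocount of 0.1, a minimum of 5 or none, 4 scalings (1 added after seeing the data) and summing rows per symbol. All 39 Hox IDs matched the name table. Coordinates, miRNAs and start regions are RefSeq's (GRCm38.p6). The calls were run on simulated columns with large changes in abundant genes only. That run checks the code and cannot gauge calls near 2-fold or at low TPM. Python 3.11.15, pandas 2.3.3 and NumPy 2.4.6 were used.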

Additional observations from a re-analysis of the deposited data

How the results depend on the processing

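No paired analysis was possible because the table holds 1 value per gene and segment; for the same reason no library could be left out. Weighted mean paralog numbers were 8.09, 7.5 and 7.30 in S1, S2 and S3 under quantile normalization and 8.20, 7.39 and 7.30 when rows were summed per symbol. With a pseudocount of 0.1, Hox genes at least 2-fold higher and lower were 5 and 9 for S1 minus S2, 2 and 12 for S1 minus S3, and 1 and 1 for S2 minus S3, with medians of -0.62, -0.61 and -0.22. A minimum TPM of 5 left 11 genes: 1 higher and 3 lower for S1 minus S2, 0 and 5 for S1 minus S3, with medians of -0.56, -0.72 and -0.46. Shares over all genes were not computed with this pseudocount or this minimum, so these counts have no background beside them. With no filter the medians over 39 genes were -0.24, -0.21 and -0.074. Quantile normalization gave 6 higher and 3 lower for S1 minus S2 (1521 and 1729 of the 16053 genes compared) and 1 lower for S2 minus S3 (540 of all genes). Its Hox medians were 0.0506, -0.27 and -0.50. Median-of-ratios scaling over all genes above 0 gave 5 and 3 for S1 minus S2 (3550 and 1586 of all genes) and 4 lower for S2 minus S3 (967 of all genes). Its Hox medians were 0.0534, -0.36 and -0.51. The same scaling over genes compared, added after seeing the data, gave 1 lower for S2 minus S3 (481 of all genes) and medians of -0.35, -0.43 and -0.30. With mitochondrially encoded genes, Gpx3 and Kap left out, the medians were -0.59, -0.50 and -0.11. The cause of these shifts was not tested. Under every setting, S1 was below both other segments by 2-fold or more for Hoxb2, Hoxb6 and Hoxb9. S1 was above both others by that factor for Hoxa11, and above S3 for Hoxd10, except with the minimum of 5, which neither gene reached. Hoxa7 (0.82 to 1.04 for S3 minus S1) and Hoxb7 (0.92 to 1.16) lay on either side of the threshold. Unknown depth and 1-decimal values limit genes near a TPM of 1.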

Other observations

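Genes next to the clusters were mostly not ordered as cluster B was, and neither were most of all genes compared (20.9% had ever higher values). Of the 3 nearest protein-coding genes on either side of each cluster, 24 in all, 23 were in the table and 19 were compared. Between S1 and S3, 2 of these 19 were higher in S1 by the 2-fold threshold and 1 was lower, against 10.5% and 13.1% of all genes. Their median S1 minus S3 was 0.06. Values went up from S1 through S2 to S3 for 5 of the 19: Skap1 and Cbx1 beside cluster B, Hibadh beside cluster A (381, 534.4 and 550.8 TPM), Hnrnpa1 beside cluster C and Lnpk beside cluster D. Beside cluster B, Skap1 was at 0.3 TPM (S1), 1.9 (S2) and 2.4 (S3), lower in S1 by the threshold as cluster B genes were, Cbx1 at 15.9, 21.7 and 23.7, Snx11 was level at 4.3, 5.2 and 4.9, and Atp5g1, a subunit of ATP synthase, was at 1871, 843.7 and 826.8. Beside cluster A, Snx10, a sorting nexin of endosomes, was at 9.3, 2.0 and 0.4 TPM. Halr1, a non-coding RNA outside cluster A that was singled out after its values were seen, was at 30 TPM (S1), 7.1 (S2) and 0.9 (S3), an order opposite to that of Hotairm1. The homeobox genes Evx1 and Evx2, which adjoin clusters A and D, were at or below 0.1 TPM.

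Among 19 other homeobox genes compared, 10 were lower in S1 than in S2, 9 were lower than in S3, and none was higher in S1 in either contrast, against 17.7% and 13.1% lower and 6.62% and 10.5% higher over all genes. Median-of-ratios scaling over all genes above 0 left 6 lower and 1 higher in S1 than in S2, beside 1586 lower and 3550 higher of all genes. The homeobox genes compared include Irx2 (0.1, 8.7 and 31 TPM), Irx3 (0.3, 22.7 and 20.6) and Pou3f3 (listed at 0, then 9.2 and 13.5). Of 6 compared partners and targets of Hox genes in the embryonic kidney, 1 was higher and 3 were lower in S1 than in S2 (6.62% and 17.7% over all genes). Cited1, a nephron progenitor gene, was at 0.2, 4.1 and 12 TPM and Meox1 at 0.9, 8.3 and 2.4. Six2 and Gdnf, targets of group 11 Hox proteins, were at or below 0.1 TPM, and Eya1 at or below 0.2; these 3 were named after their values were seen. These lists were read with the same lack of replicate values as the rest.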
